A study of Xenopus laevis with 11 samples.

Results

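Collagens and the proteases that process or degrade the extracellular matrix were followed through the accessible chromatin of Xenopus laevis animal caps at stage 9. Members were the protein-coding genes whose symbol starts with col, mmp or adamts and then carries a chain or enzyme number, such as col1a2, mmp14 or adamts9. The symbols were read from the NCBI RefSeq gene table of the v10.1 assembly, and no measured value entered the rule. It found 114 gene copies among 34461 protein-coding genes on the 18 chromosomes, of which 58 were collagens, 29 were matrix metalloproteinases (MMPs) and 27 were ADAMTS proteases. X. laevis is an allotetraploid whose L and S subgenomes come from different parental species, and matching copies on L and S are called homeologs. The 114 copies belonged to 70 gene symbols. Of them, 64 were L copies, 49 were S copies, and col9a1-b, on chromosome 5S, carried neither suffix.

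The chromatin was measured by ATAC-seq, in which the transposase Tn5 inserts sequencing adapters where DNA is free of nucleosomes. Animal caps, the ectoderm explanted from the blastula and still pluripotent, came from wild-type embryos of the strain labelled Xla.NXR-WTNXR, at stage 9 (6 libraries from 4 replicates) and at stage 8 (5 libraries from 3 replicates), with 2 caps in each reaction. The libraries were not prepared alike. Some were size-selected versions of another library of the same replicate, and some replicates were sequenced only after size selection. The authors pooled the stage 9 libraries and called 58223 peaks from the pool. Only this pooled list was used here, which leaves stage 8 out of every comparison and gives no measure of the variation among replicates.

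Collagen chains assemble by their helical parts into fibrils, networks and filaments that carry load in connective tissue and underlie epithelia as basement membrane. MMPs are zinc proteases, most of them secreted and some anchored in the cell membrane, that cut collagens and many other proteins of the matrix. ADAMTS proteases are secreted relatives that trim the ends of procollagens or cleave large proteoglycans such as aggrecan and versican. In the embryo most fibrillar collagens are best known from mesodermal and skeletal tissues that form after the blastula stage, and several MMPs from remodelling at metamorphosis.

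Each peak was placed by its summit. An end peak had its summit within 1 kb of either annotated end of a gene copy, since the gene table used here gives no strand. An inside peak lay within the gene and over 1 kb from both ends, and a distal peak lay 1 to 10 kb outside the gene and over 1 kb from the end of any other gene. Strength is given as the authors' fold enrichment over local background and as the number of fragments covering the summit. The median summit of the whole list was covered by 9 fragments and no called peak by fewer than 5, so where no peak is given, none was detectable at this depth and under the authors' filters. A site open in few cells and a site weakly open in all cells cannot be told apart in such pooled tissue. Among 19 copies of ectodermal regulators and epithelial genes used to check the tissue, 16 had an end peak (84.2%, 95% Wilson interval 62.4 to 94.5). The share was 47.8% of all protein-coding genes and 61.4% of those with a name. Of the 19 copies, gata2.L and dlx5.L had the most peaks of the 3 kinds, 16 and 13. Regulators of other germ layers were not counted beside them, so this check cannot tell ectoderm from other tissue.

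Accessible gene ends were less frequent among collagens and MMPs than among protein-coding genes at large, and about as frequent among ADAMTS genes. An end peak was called at 16 of 58 collagen copies (27.6%, 95% Wilson interval 17.8 to 40.2), against 47.8% of all protein-coding genes. MMPs had an end peak at 4 of 29 copies (13.8%, 5.5 to 30.6). ADAMTS genes had one at 13 of 27 copies (48.1%, 30.7 to 66.0). The intervals of collagens and MMPs ended below the share of all genes, while that of ADAMTS genes contained it. Taking the families as 1 group, 33 of 114 copies had an end peak (28.9%, 21.4 to 37.9). These intervals treat copies as independent, which homeologs and neighbouring genes are not, and cover counting error only. Among the 21881 protein-coding genes that carry a name and not a model number, 61.4% had an end peak. The ADAMTS interval contained this share too, and those of collagens and MMPs ended below it.

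Sites away from the gene ends followed a similar order of families, with wide intervals. Inside peaks were found at 13 of 58 collagen copies (22.4%), 4 of 29 MMP copies (13.8%) and 11 of 27 ADAMTS copies (40.7%), against 27.5% of all protein-coding genes. Distal peaks were found at 10 collagen copies (17.2%), 3 MMP copies (10.3%) and 9 ADAMTS copies (33.3%), against 24.9% of all genes. The share of all genes lay within the interval of every family for distal peaks and, before gene length was considered, for inside peaks. Counting any of the 3 kinds, 29 collagen copies (50.0%), 6 MMP copies (20.7%) and 18 ADAMTS copies (66.7%) had a peak, against 62.3% of all genes and 74.6% of those with a name. The ADAMTS interval (47.8 to 81.4) contained both shares. For this count no share of genes of like length was computed. In all, 53 of the 114 copies had a peak (46.5%, against the same 62.3% of all genes) and 61 had none. Exactly 1 peak was called at 22 copies and 5 or more at 7, for which no share of all genes was computed.

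**Figure D1:**
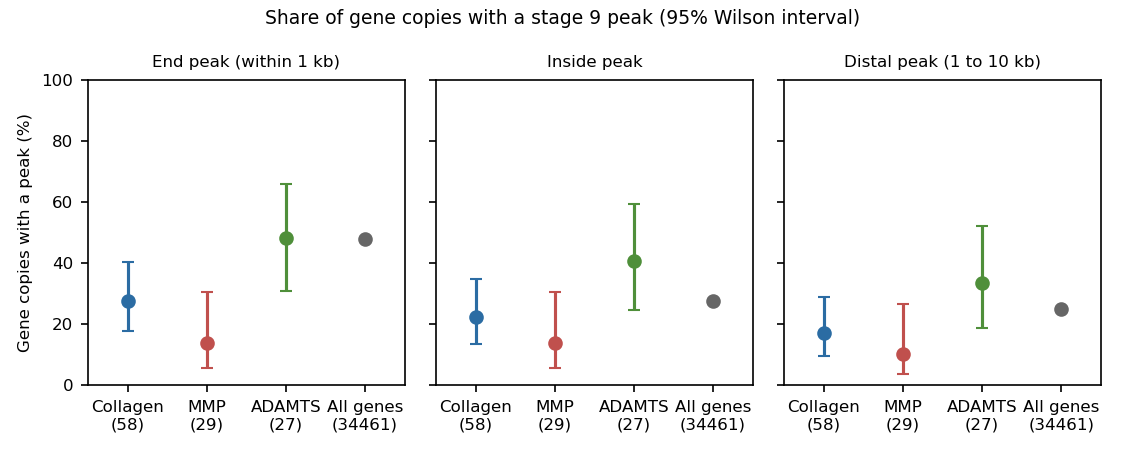
Share of gene copies (%, vertical axis) with an end, inside or distal peak in stage 9 animal caps, for collagens, MMPs, ADAMTS genes and all protein-coding genes, with the number of copies in brackets. Bars are 95% Wilson intervals, which cover counting error only. For end peaks the collagen and MMP intervals end at 40.2% and 30.6%, below the 47.8% of all genes, and the ADAMTS interval spans it.

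Gene length differed strongly between the sets and bears on inside peaks, because a longer gene holds more sequence. The median length was 83.4 kb for collagens, 11.4 kb for MMPs and 79.1 kb for ADAMTS genes, against 17.2 kb for all protein-coding genes. Genes with the length mix of the collagens had an end peak in 55.4% and an inside peak in 48.8% of cases, both above the upper limits for collagens (40.2% and 34.7%). Genes with the length mix of the MMPs had an end peak in 46.6% and an inside peak in 25.6%, and only the end share lay above the MMP interval. For ADAMTS genes the like-length shares were 53.6% and 48.6%, both within the family's intervals.

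Copies of 50 to 100 kb had few open ends in all 3 families. Only 1 of 19 such collagens had an end peak, col4a5.L, against 58.1% of all genes of that length. At the same length 2 of 9 ADAMTS copies (22.2%) and 0 of 4 MMP copies had one. Collagens of 20 to 50 kb had an end peak at 5 of 16 copies (31.2%), against 54.6% of all genes of that length. Collagens of 100 kb or more had an end peak at 10 of 22 copies (45.5%), against 53.8% of all genes of that length. In copies of 50 to 100 kb, inside peaks were also sparse per length of sequence. They numbered 4.88 per Mb in collagens, 4.93 in ADAMTS genes and 3.58 in MMPs (1 peak), against 15.3 in all genes. In copies of 100 kb or more the density was 4.39 per Mb for collagens and 4.19 per Mb for ADAMTS genes, against 8.87 per Mb for all genes. The 2 MMP copies of that length had 17.1 per Mb. Of the 12 ADAMTS copies of this length, 9 had an end peak (75.0%). Among the 19 MMP copies shorter than 20 kb, only mmp25.L had an end peak, against 41.6% of all genes that short.

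Where gene ends of these families were open, their peaks were of ordinary strength. The 50 different end peaks had a median fold enrichment of 6.35 and a median of 11 fragments, against 6.61 and 11 for all peaks within 1 kb of a gene end. A −log10 q-value of at least 10 was reached by 34.0% of them, against 33.9% of all gene-end peaks. Counted by copy, such strong end peaks were present at 10 collagens (17.2%), 1 MMP (3.45%) and 6 ADAMTS genes (22.2%), against 22.9% of all protein-coding genes. At this strength only the MMP interval (0.611 to 17.2) ended below the share of all genes, and the collagen interval (9.64 to 28.9) contained it. Peaks elsewhere were weaker. The 50 inside peaks had a median fold enrichment of 4.71, and 1 of them (2.0%) reached that q-value. The 34 distal peaks had a median of 4.92, and 2 (5.88%) reached it, against a median of 4.92 and a share of 11.2% for all peaks away from gene ends.

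End peaks lay within 1 kb of an annotated end by definition, and their distances were not compared with those of all gene-end peaks. Counted per copy there were 52 end peaks in the families, with a median distance of 248 bp, and 26 of them lay within 250 bp of the end. The summit was inside the gene for 30 and outside it for 22. Only adamts1.L had end peaks at both of its ends. The summit nearest to the 1 kb limit on its inner side was that of col11a1.L at 987 bp (6.62-fold), and on its outer side one near col4a5.S at 1059 bp (3.84-fold). At the 10 kb limit the nearest were a summit 9933 bp from col4a2.L (3.09-fold) and one 10161 bp from adamts2.S (9.58-fold).

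**Figure D2:**
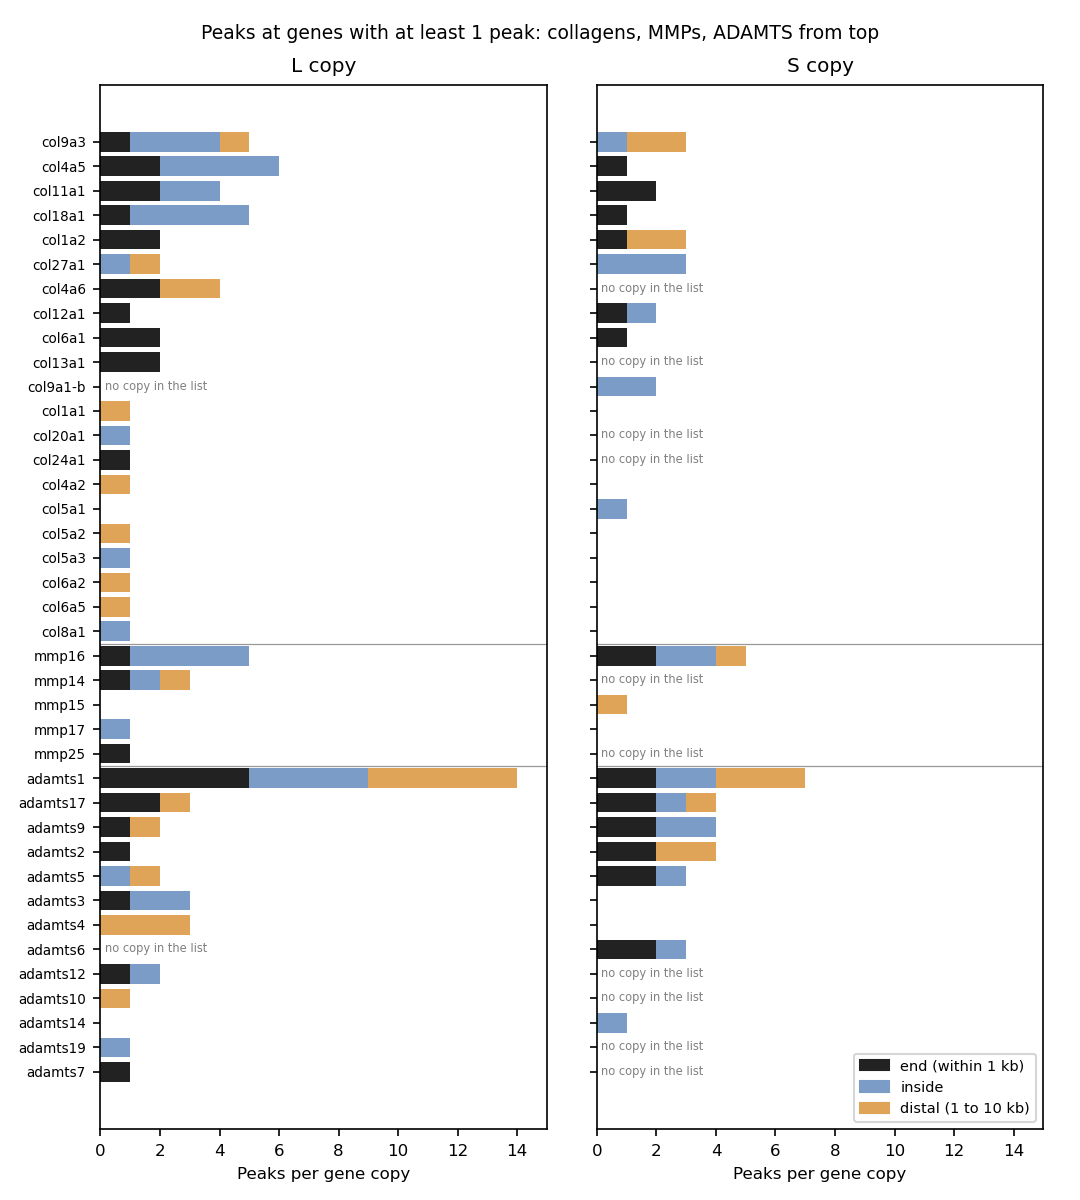
Number of peaks per gene copy (horizontal axis) for every collagen, MMP and ADAMTS gene with at least 1 peak, L copies on the left and S copies on the right. Bars are split into end, inside and distal peaks, "no copy in the list" marks a copy the symbol rule did not find, and col9a1-b, which has no suffix, is drawn with the S copies because it lies on chromosome 5S. The longest bar is adamts1.L with 14 peaks, followed by adamts1.S with 7 and col4a5.L with 6.

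Fibril-forming collagens had an end peak at 5 of 19 copies (26.3%, 11.8 to 48.8), against 47.8% of all genes, a share that the interval contained. These were both copies of col1a2 and of col11a1, and col24a1.L. col1a2, which encodes the second chain of type I collagen, had summits 108 bp outside (10.5-fold, 16 fragments) and 560 bp inside (8.25-fold, 16 fragments) the same end of the L copy (6L:32779143-32817005). The S copy (6S:25828688-25868635) had 1 end peak, 68 bp outside the end, of 9.35-fold and 16 fragments. The other chain of type I collagen, col1a1, had no end peak in either copy. Near col1a1.L a single distal peak of 4.92-fold (7 fragments) lay 2.17 kb away, and the summit nearest to col1a1.S lay 15.6 kb away. All end peaks of type I collagen were thus at col1a2.

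col11a1, a chain of the minor fibrillar type XI collagen of cartilage, had end peaks at the same coordinate end of both copies. In the L copy they were of 6.62-fold (11 fragments, 987 bp inside) and 6.61-fold (10 fragments, 225 bp outside). In the S copy they were of 8.34-fold (14 fragments, 844 bp inside) and 3.88-fold (7 fragments, 551 bp inside). The strongest end peak of a fibrillar collagen was that of col24a1.L, 45 bp inside the end of the gene, with 11.6-fold and 20 fragments (95% Poisson interval 12.2 to 30.9).

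Other fibrillar chains were open only away from their ends or not detectably open. col27a1 had no end peak, but col27a1.L held the strongest inside peak of any collagen, 10.3 kb from its end, at 7.99-fold with 12 fragments. col27a1.S held 3 inside peaks of 3.4 to 5.5-fold. Weak single peaks were called inside col5a1.S (3.84-fold) and col5a3.L (4.3-fold) and beside col5a2.L (3.82-fold, 3.27 kb away). col2a1, the main fibrillar collagen of cartilage and notochord, had no peak of any kind in either copy, with the nearest summits 17.0 kb from the L copy and 39.8 kb from the S copy. col3a1, the chain of type III collagen, had none either, with the nearest summits 116 kb from the L copy and 187 kb from the S copy.

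Type IV collagens form the network of basement membranes, and in vertebrates their genes lie in head-to-head pairs. An end peak was called at 3 of 6 copies (50.0%, 18.8 to 81.2), against 47.8% of all genes. On chromosome 8L, col4a6.L and col4a5.L were separated by 796 bp and shared 2 peaks. The stronger, of 10.0-fold with 17 fragments (9.9 to 27.2), had its summit 25 bp inside col4a6.L and 822 bp outside col4a5.L. The weaker, of 4.85-fold with 9 fragments, lay in the gap. col4a5.L also held 4 inside peaks of 3.52 to 6.19-fold, and its 6 peaks were the most of any collagen copy. col4a5.S had a single end peak of 4.95-fold (8 fragments), 132 bp inside the end, at which another gene, LOC108700099, also ended within 1 kb.

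No peak was shared by the other pair. col4a2.L and col4a1.L, which encode the most widespread chains of basement membrane, were separated by 304 bp with no peak in the gap. No summit lay in either gene, and the stretch without any summit around them spanned 383 kb on chromosome 2L. Its lower border was the weak distal peak of col4a2.L (3.09-fold, 7 fragments). col4a2.S had no peak, and its nearest summit was 37.1 kb away.

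Among collagens with other roles, the clearest end peaks were those of col18a1, col12a1 and col13a1. col18a1 encodes a basement membrane collagen of the multiplexin group from which endostatin is cleaved. Its L copy (9_10L:81655859-81761491) had the strongest end peak of any collagen, of 13.8-fold with 28 fragments (18.6 to 40.5), and 4 inside peaks of 3.88 to 7.31-fold, all within 21.0 kb of the same end. Its S copy (9_10S:71732734-71845438) had the end peak, of 11.4-fold with 18 fragments (10.7 to 28.4), and no inside or distal peak. The end of col18a1 was thus open in both copies, and its inside peaks were called on L alone.

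col12a1, a fibril-associated collagen, had end peaks of 8.73-fold (14 fragments) in the L copy and 5.76-fold (9 fragments) in the S copy. The S copy held a further peak of 6.25-fold 1.09 kb inside its end. col13a1.L, a transmembrane collagen, had 2 end peaks of 8.38 and 4.19-fold. Of the 14 fibril-associated copies, only those of col12a1 and col9a3.L had an end peak (21.4%, 7.57 to 47.6), against 47.8% of all genes. col9a3.L, a chain of type IX collagen of cartilage, had 5 peaks, all of them weak, between 4.3 and 5.35-fold. col9a1-b held 2 weak inside peaks of 4.41 and 3.88-fold. col9a1.L and both copies of col9a2 had none, although an end peak of the neighbouring smap2 lay 7.87 kb from col9a2.L and 5.24 kb from col9a2.S.

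Beaded-filament collagens of type VI had end peaks at 2 of 8 copies (25.0%, 7.15 to 59.1), against 47.8% of all genes. Both were copies of col6a1, with 6.15-fold (9 fragments) in the L copy and 3.4-fold (6 fragments) in the S copy. The adjacent col6a2 had no end peak in either copy, and its L copy had a distal peak of 4.92-fold 7.95 kb away, in the gap to col6a1.L. col6a5.L had the strongest distal peak of a collagen, at 5.34-fold. Short-chain collagens had no end peak at any of 6 copies (0.0%, 0.0 to 39.0), against 47.8% of all genes. A single weak peak inside col8a1.L (3.44-fold, 5 fragments) was their only one. That group includes col10a1, the marker of hypertrophic cartilage. col17a1, the collagen of hemidesmosomes in skin, had no peak in either copy, with the nearest summits 31.1 kb from the L copy and 37.7 kb from the S copy.

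All MMP peaks were at membrane-type enzymes, the MMPs anchored in the cell surface. Of 9 membrane-type copies, 4 had an end peak (44.4%, against 47.8% of all protein-coding genes) and 6 had a peak of any kind (66.7%, against 62.3%), so that this class stood near the shares of all genes. Among genes with a name the shares were higher, 61.4% and 74.6%, though within the intervals of the class (18.9 to 73.3 and 35.4 to 87.9). The median length of the class was 63.3 kb, and the interval of its end peaks also contained the 58.1% of all genes of 50 to 100 kb. None of 7 collagenase, 4 gelatinase, 4 stromelysin or matrilysin and 5 other MMP copies had a peak of the 3 kinds. These classes were shorter, with medians of 7.89, 9.58, 11.3 and 16.7 kb in that order, and the part of length in the contrast was not tested. With so few copies the Wilson interval for a peak of any kind still reached 35.4% for the collagenases and 49.0% for the gelatinases, against 62.3% of all genes. These copies are not independent. All collagenase copies, mmp3.L, mmp7.L and mmp20.L lie in a single cluster on chromosome 2L or in its counterpart on 2S.

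mmp16, which in mammals activates the secreted gelatinase MMP2, led the family with 5 peaks in each copy. The end peak of mmp16.L (6L:135400541-135594846) lay 235 bp inside the gene and reached 7.51-fold with 12 fragments (6.2 to 21.0). That of mmp16.S (6S:111559178-111719248) lay 246 bp inside and reached 9.64-fold with 24 fragments (15.4 to 35.7). The strongest MMP peak of all was not at a gene end. It lay 3.45 kb inside mmp16.L, with 11.9-fold and 19 fragments, while a peak at a similar place, 3.83 kb inside mmp16.S, reached 5.82-fold with 11 fragments. A distal peak of 10.5-fold (17 fragments) lay 4.79 kb outside mmp16.S, and mmp16.L had no distal peak.

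mmp14.L, a membrane collagenase used by migrating cells, had 3 peaks. Its distal peak, 1.66 kb outside the gene, was the strongest at 7.36-fold (12 fragments), ahead of an end peak of 5.27-fold (8 fragments) at 920 bp and an inside peak of 4.58-fold. mmp25.L, anchored by a lipid in mammals, had an end peak of 6.15-fold (9 fragments). mmp17.L had an inside peak of 6.8-fold (11 fragments) and mmp15.S a distal peak of 3.86-fold. The other copies of this class, mmp17.S, mmp15.L and mmp24.S, had no peak.

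The clustered secreted MMPs and mmp2.S lay in long stretches without an accessible site, while other secreted MMPs were nearer to one. Lengths of such stretches, here and at other members, were not compared with those around all genes. The cluster on chromosome 2L (168773502-169022056) held mmp3.L, mmp7.L, mmp20.L, mmp8.L, mmp1.L and mmp13l.L among 10 protein-coding genes. No summit lay in its 249 kb, and the stretch without a summit ran for 328 kb. Its counterpart on chromosome 2S (150857749-151062987), with mmp13.S, mmp8.S, mmp1.S and mmp13l.S among 7 genes, had none in 205 kb, and there the stretch ran for 298 kb. mmp2.S, a gelatinase of connective tissue, lay 480 kb from the nearest summit, the largest distance of any member. Among all protein-coding genes the largest was 756 kb. Copies of the gelatinase mmp9 were 10.9 kb (mmp9.1.S), 30.6 kb (mmp9.2.L) and 25.4 kb (mmp9.2.S) from a summit. mmp11.L, a stromelysin active in amphibian metamorphosis, had only 2 end peaks of the neighbouring smarcb1.L within 10 kb.

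ADAMTS genes had peaks in all of their groups, at end-peak shares near that of all genes and below that of genes with a name. An end peak was called at 3 of 6 copies of the procollagen N-proteinases (adamts2, adamts3, adamts14), or 50.0%. It was called at 5 of 11 proteoglycanase copies (adamts1, 4, 5, 8, 9 and 15), or 45.5%, and at 5 of 10 other copies, or 50.0%. The interval of each group contained both the 47.8% of all protein-coding genes and the 61.4% of those with a name. The most open member of the 3 families was adamts1, a proteoglycanase that cleaves aggrecan and versican in mammals. adamts1.L (2L:17507994-17516993) had 14 peaks, of which 5 were end, 4 inside and 5 distal peaks, although the gene is 9.0 kb long. adamts1.S (2S:17141620-17150773), 9.15 kb long, had 7, of which 2 were end, 2 inside and 3 distal peaks.

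In both copies the strongest peak lay just outside the end that faces adamts5, its neighbour on the chromosome. It reached 12.4-fold with 20 fragments (12.2 to 30.9) at 44 bp in the L copy and 18.3-fold with 29 fragments (19.4 to 41.6) at 93 bp in the S copy. The S value was the highest fold enrichment in the 3 families. The space between adamts1 and adamts5 measured 88.9 kb on L and 84.7 kb on S, with 7 peaks on L and 6 on S. All 7 on L lay within 10 kb of adamts1, while on S 4 did so and 2 lay farther, 16.9 and 35.5 kb from adamts1. The distal peak of highest fold enrichment lay at a similar distance from adamts1 in both copies, with 10.5-fold at 5.55 kb on L and 6.81-fold at 5.82 kb on S.

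**Figure D3:**
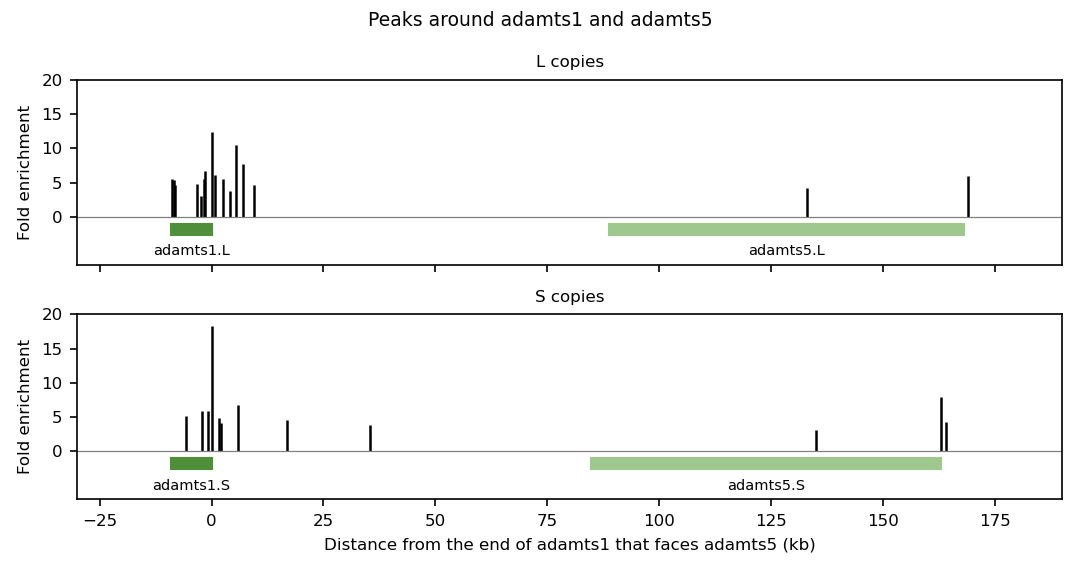
Peaks around adamts1 and adamts5 on L (top) and S (bottom), drawn by distance from the end of adamts1 that faces adamts5 (kb, horizontal axis) and by fold enrichment (height of each line), with genes as green boxes. On both subgenomes the tallest peak stands at that end, 12.4-fold on L and 18.3-fold on S, most peaks lie within 10 kb of adamts1, and near the far end of adamts5 there is 1 peak on L and 2 on S.

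adamts5, an aggrecan-cleaving enzyme, had fewer peaks than adamts1, with 2 at the L copy and 3 at the S copy. Near the end of adamts5 that faces away from adamts1, the L copy had a peak of 5.97-fold (9 fragments) 1.43 kb outside the gene. The S copy had 2 end peaks there, of 7.99-fold (12 fragments) 572 bp inside and 4.3-fold (6 fragments) 871 bp outside. The difference in end peaks between the copies thus turned on the 1 kb limit. adamts9, a proteoglycanase also needed for cilia in mammals, had an end peak of 12.9-fold with 20 fragments in the L copy and 2 of 6.76 and 6.23-fold with 10 fragments each in the S copy. adamts4.L had no end peak and 3 distal peaks of 4.92 to 7.19-fold within 7.21 kb, and adamts4.S had no peak. adamts8.L and both copies of adamts15 were without a peak, and the L copies of adamts8 and adamts15 lay in a stretch of 282 kb without a summit.

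Of the N-proteinases, which remove the amino-terminal propeptide of fibrillar procollagens, adamts3 had an end peak at its L copy alone. adamts3.L had an end peak of 9.02-fold with 16 fragments (9.15 to 26.0), 3 bp outside the annotated end, and 2 weak inside peaks. adamts3.S had none, and its nearest summit lay 184 kb away. adamts2 was open at an end in both copies, at 4.92-fold (7 fragments) in the L copy and at 6.05-fold (12 fragments) and 4.37-fold (8 fragments) in the S copy. For adamts14 the only peak was a weak one inside the S copy (4.37-fold), and the L copy lay 196 kb from the nearest summit.

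Among the other ADAMTS genes the strongest end peaks were those of adamts17, an enzyme tied to fibrillin microfibrils in human. They reached 16.0-fold with 29 fragments (19.4 to 41.6) in the L copy and 14.1-fold with 22 fragments (13.8 to 33.3) in the S copy. Both peaks also lay within 1 kb of an end of the ceramide synthase gene cers3, so that they cannot be assigned to either gene. adamts6.S had end peaks of 7.53 and 6.4-fold, adamts7.L one of 6.29-fold and adamts12.L one of 5.53-fold. adamts16.L and both copies of adamts18 had no peak, and adamts18.L lay 238 kb from the nearest summit. Across the families 5 copies had only end peaks that were also at another gene's end, and without them 28 of 114 copies (24.6%) had an end peak, a count added after seeing the data. The share of all genes was not computed with this exclusion, so 47.8% is no comparison for it.

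The distance from a gene end to the nearest summit described the same order without a fixed window. Its median was 13.4 kb for collagens, 26.7 kb for MMPs and 1.19 kb for ADAMTS genes, against 1.8 kb for all protein-coding genes. The nearest summit was over 10 kb away for 51.7% of collagens, 79.3% of MMPs and 40.7% of ADAMTS genes, against 36.9% of all genes. Each family had copies within 1 kb of a summit. Others lay over 50 kb from any, namely 10 collagens (17.2%), 9 MMPs (31.0%) and 5 ADAMTS genes (18.5%), against 15.3% of all genes. Besides mmp2.S, adamts18.L, adamts14.L, col3a1.S and adamts3.S, the members farthest from a summit were col4a1.L (129 kb), col5a1.L (118 kb) and col3a1.L (116 kb). The neighbours col3a1 and col5a2 lay together in a stretch of 310 kb without a summit on 9_10L and of 496 kb on 9_10S.

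**Figure D4:**
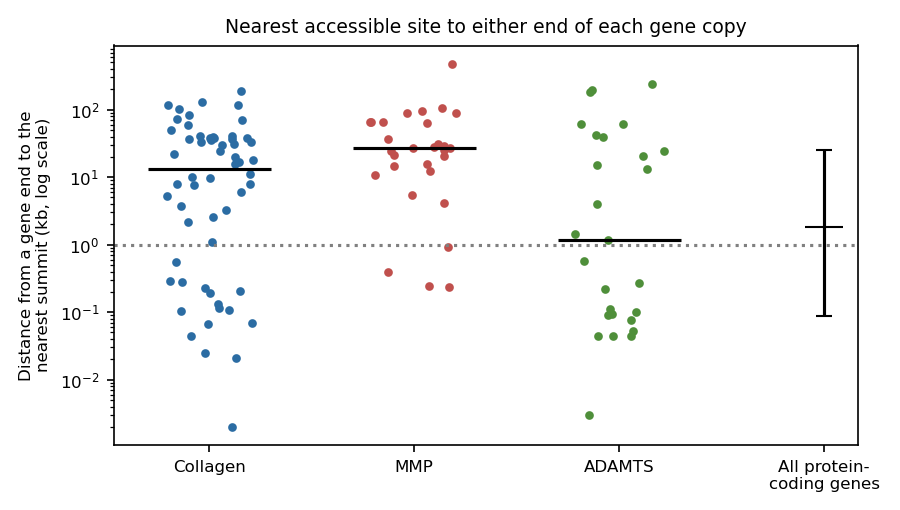
Distance from either end of each gene copy to the nearest summit (kb, logarithmic axis), 1 point per copy, with a line at the median of each family, and the median and quartiles of all protein-coding genes at the right. The dotted line marks 1 kb. The medians are 13.4 kb for collagens, 26.7 kb for MMPs and 1.19 kb for ADAMTS genes, against 1.8 kb for all genes.

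Homeologs were mostly alike at their ends. Of the 114 copies, 88 formed 44 pairs with 1 L and 1 S copy on matching chromosomes. In 41 pairs (93.2%, 81.8 to 97.7) both or neither copy had an end peak, against 80.3% of all 7759 homeolog pairs. Much of this was shared absence, since neither copy had an end peak in 30 pairs (68.2%), against 27.4% of all pairs. Both copies had one in 11 pairs (25.0%), against 52.9% of all pairs. Of the 14 pairs with an end peak at either copy, 78.6% had it at both, against 72.9% of such pairs overall.

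The exceptions were few. An end peak was called at the L copy alone for adamts3 and col9a3 (4.55%), against 11.0% of all pairs, and at the S copy alone for adamts5 (2.27%), against 8.69% of all pairs. In each of the 11 pairs open at both copies, the Poisson intervals of the fragments at the strongest end peak overlapped. The fold enrichment was higher at L in 7 of them and higher at S in 4. The largest difference in fragments was that of mmp16, whose L copy had 12 and whose S copy had 24. It was followed by adamts9, with 20 in the L copy and 10 in the S copy, and by col18a1, with 28 in the L copy and 18 in the S copy. With 1 pooled list these gaps have no replicate error, and overlapping intervals do not show that the copies were equally open.

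**Figure D5:**
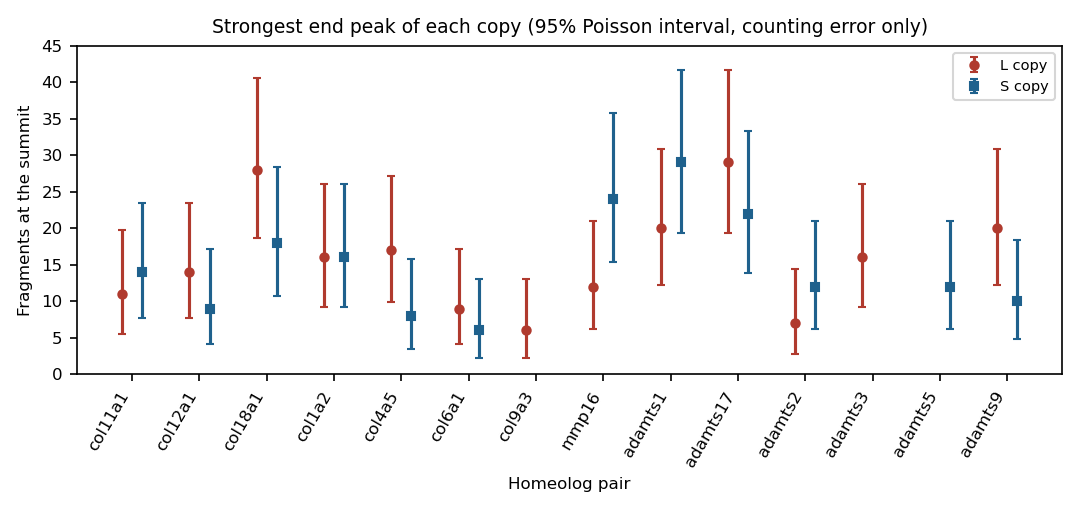
Fragments at the summit of the strongest end peak (vertical axis) for each of the 14 homeolog pairs with an end peak, L copies as red circles on the left and S copies as blue squares on the right. Bars are 95% Poisson intervals and cover counting error only; a missing symbol means that no end peak was called. In all 11 pairs with both symbols the intervals overlap, and col9a3, adamts3 and adamts5 have a symbol at 1 copy only.

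Away from the ends the agreement of copies was close to that of all pairs. Both or neither copy had an inside peak in 72.7% of the 44 pairs, against 69.3% of all pairs, and a distal peak in 70.5%, against 68.4%. Counting end, inside and distal peaks, the 44 pairs had 68 peaks at L and 46 at S, so that 59.6% were at L, against 53.6% over all homeolog pairs. More peaks were at the L copy in 16 pairs (36.4%) and at the S copy in 10 (22.7%), against 38.5% and 29.5% of all pairs. The other 18 pairs had equal numbers, of which 17 had none. In 31 pairs (70.5%) both or neither copy had a peak of any kind, against 80.1% of all pairs. Such a peak was present at L alone in 10 pairs (22.7%), against 11.2% of all pairs, and at S alone in 3 (6.82%), against 8.64% of all pairs. Collagens had 34 peaks at L and 17 at S over 25 pairs, or 66.7% at L. MMPs had 6 at L and 6 at S, and ADAMTS genes 28 at L and 23 at S. Without adamts1, the ADAMTS pairs had 14 peaks at L and 16 at S.

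Among collagens the pairs with the largest surplus at L were col4a5, with 6 peaks at L and 1 at S, and col18a1, with 5 at L and 1 at S, followed by col11a1, with 4 at L and 2 at S, and col9a3, with 5 at L and 3 at S. For col4a5 the surplus depends in part on the counting rules. Both end peaks of col4a5.L are shared with col4a6.L, and a summit 1059 bp from col4a5.S was not counted because it lay near an end of LOC108700099. Among ADAMTS genes, adamts3 and adamts4 had 3 peaks at L and none at S. The opposite direction was clearest for adamts2, with 1 peak at L and 4 at S, and for adamts9, with 2 at L and 4 at S. Over all copies of the families, an end peak was present at 20 of 64 L copies (31.2%) and 13 of 49 S copies (26.5%), against 61.0% of all genes named .L and 60.9% of all named .S.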

How the data were processed

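ATAC-seq of animal caps gave 11 libraries, with 1 h of transposition and 12 cycles of amplification per the labels. The file used holds 58223 peaks that the authors called on all stage 9 libraries pooled. Reads were mapped to the v10.1 genome, alignments of low mapping quality were dropped and sub-nucleosomal fragments were selected, according to the study's methods. Enrichment was judged against CUT&RUN libraries prepared with no antibody and pooled, and entries overlapping ribosomal repeats or small RNA genes were discarded. The tools named in the submitters' processing notes are Bowtie2 2.4.2, MACS2 2.2.7.1 (the peak caller) and bedtools 2.30.0. Reads that match L and S sequence equally well are lost by the mapping filter, and the control assay cuts DNA differently from Tn5, so both steps can change which sites are called. Pooling gives deeper libraries more weight.

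For each peak the authors deposited the fold enrichment, a ratio of coverage at the summit to local background. The deposited −log10 p-value and −log10 q-value are MACS2's Poisson tests of that summit, made by the authors' peak calling. The deposited score is 10 times the −log10 q-value, within 1 in 100.0% of entries, and the last column is the offset of the summit in the peak. Fragments at each summit were recovered from fold enrichment and −log10 p-value with MACS2's pseudocount of 1. Whole fragment numbers matched both values for 99.99% of peaks (relative tolerance 0.0001). Among them, 410 allowed more than 1 number, of which the nearest was taken, and 6 peaks allowed none. All 134 member peaks were recovered. Amplified fragments without molecular identifiers are not independent molecules, so 95% Wilson and exact Poisson intervals cover counting error only.

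Gene ends came from the NCBI RefSeq table of the v10.1 assembly, which as used here gives neither strand nor exons, so peaks at a 3′ end count as end peaks and no peak was placed in an exon, intron or UTR. The 8 peaks on scaffolds were not used. No set test, and no p-value for a family, was computed, and shares are set beside those of all protein-coding genes, members included. Genes of like length are the protein-coding genes outside the 3 families, weighted to a family's mix of length classes, bounded at 20, 50 and 100 kb. Members, gene lists and rules were chosen with earlier results of these data known. Genes named were, in each family, the 6 copies with most peaks, the 3 with the highest fold enrichment of each kind of peak, the 3 pairs with the largest difference in peaks in each direction, and chains and enzymes chosen for their roles. Genes of these families under other symbols were not analysed here. Scripts ran in Python 3.11.15 with pandas 2.3.3, numpy 2.4.6 and scipy 1.17.1 and were tested on simulated data.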

Additional observations from a re-analysis of the deposited data

How the results depend on the processing

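No paired analysis was possible because the peaks come from 1 pooled list, and for the same reason no replicate could be left out. Shares of copies with a peak depended most on the strength required of a peak. Requiring a −log10 q-value of at least 10 gave end peaks at 17.2% of collagens, 3.45% of MMPs and 22.2% of ADAMTS genes, against 22.9% of all genes, which the collagen interval then contained. Inside peaks were then at 0.0%, 3.45% and 0.0% of these families in the same order, against 5.1% of all genes, and distal peaks at 0.0%, 3.45% and 3.7%, against 4.01%. Requiring the list's median fold enrichment of 5.51 left inside peaks at 8.62% of collagens and 7.41% of ADAMTS genes, against 14.1% of all genes, and distal peaks at 0.0% of collagens and 18.5% of ADAMTS genes, against 11.6%. Distal windows of 20 kb gave 34.5% for collagens, 24.1% for MMPs and 40.7% for ADAMTS genes, against 38.2% of all genes. With named genes alone as background the shares were 61.4% (end), 33.0% (inside) and 27.5% (distal). With genes of like length they were 55.4% (collagens), 46.6% (MMPs) and 53.6% (ADAMTS) for end peaks, 48.8%, 25.6% and 48.6% for inside peaks, and 21.6% for collagens and 21.3% for ADAMTS genes for distal peaks. End windows of 500 bp, placement by any overlap and counting the end peaks of neighbouring genes as distal left each family share within its interval. The share of homeolog pairs alike at their ends was 86.4% with the stricter q-value, 88.6% with the median fold enrichment and 93.2% with end windows of 500 bp. The share of all homeolog pairs was not computed under these settings, so 80.3% is no comparison for them. Of the 38 alike pairs under the stricter q-value, only 4 had an end peak at both copies, and the others shared its absence. With the median fold enrichment 8 pairs had an end peak at both copies, and with end windows of 500 bp 10 did. At a median of 9 fragments per summit, weak sites cannot be told apart from absent ones, and differences of a few fragments between copies lie within counting error. The families hold 27 to 58 copies, so intervals of their shares are wide.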

Other observations

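Genes needed to make collagen were open about as often as genes at large. Of 42 copies of genes for collagen-modifying enzymes, chaperones, carboxy-terminal proteinases and cross-linking oxidases, 24 had an end peak (57.1%, 95% Wilson interval 42.2 to 70.9) and 30 had a peak of any kind (71.4%), against 47.8% and 62.3% of all protein-coding genes and 61.4% and 74.6% of those with a name. The copies with most peaks were tll1.L, a tolloid-like procollagen proteinase, with 7, and the prolyl hydroxylase family gene p3h3.S and the proteinase enhancer pcolce.L with 5 each. lox.S, which encodes lysyl oxidase, had 3 peaks, all at its ends. The difference between their share and that of the collagens was not tested. The inhibitors of matrix proteases comprised 5 copies, of which a2m.S had 5 peaks, timp3.S 3 and timp3.L 2, while both copies of timp2 had none.

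Non-collagen matrix genes had end peaks at 13 of 27 copies (48.1%, 30.7 to 66.0). The interval contained both the 47.8% of all genes and the 61.4% of those with a name. Most peaks were at hspg2.L, the basement membrane proteoglycan perlecan, with 10, vcan.L, the versican that adamts1 cleaves in mammals, with 6, and the laminin chain lamc1.S with 5. Matrix receptors had end peaks at 15 of 38 copies (39.5%, 25.6 to 55.3) and inside peaks at 21 (55.3%), against 47.8% and 27.5% of all genes. For genes with a name these shares were 61.4% and 33.0%. The receptors' interval for end peaks contained the share of all genes and ended below that of named genes. The median length of the receptors was 56.5 kb, and of all genes of 50 to 100 kb, 46.5% had an inside peak, within the receptors' interval of 39.7 to 69.9. Among them itgb5.L led with 14 peaks, of which 11 were inside the gene. The adam genes, membrane-anchored relatives of the ADAMTS genes, had end peaks at 15 of 21 copies (71.4%, 50.0 to 86.2), against 47.8% of all genes. That interval contained the 61.4% of protein-coding genes with a name. The median length of the adam genes was 52.3 kb, and the interval also contained the 58.1% of all genes of 50 to 100 kb. Among adam genes adam15.L led with 14 peaks. Keratin genes, short genes in clusters, had end peaks at 5 of 71 copies (7.04%, 3.05 to 15.4), against 41.6% of all genes shorter than 20 kb.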
